A study of Mus musculus with 6 samples.

Results

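The nuclear-encoded subunits of the mitochondrial respiratory chain and ATP synthase were followed in epidermis of E19.5 C57BL/6 mouse embryos. Members were taken by symbol from the protein-coding rows of the deposited gene table: the Ndufa, Ndufb, Ndufc, Ndufs and Ndufv genes of complex I, Sdha to Sdhd of complex II, the Uqcr genes of complex III, Cycs, the Cox4 to Cox8 genes of complex IV and the Atp5 genes of ATP synthase (complex V), leaving out Ndufaf assembly factors and pseudogene names. This gave 85 genes of 49452 rows, 36 in complex I, 4 in complex II, 8 in complex III, 1 for cytochrome c, 19 in complex IV and 17 in complex V. Ndufa4 and Ndufa4l2 were counted with complex IV, to which Ndufa4 is now assigned. Cox4i1, the widely expressed form of COX subunit 4, was not analysed here. Of the 85 members 81 had a mean of at least 1 FPKM (fragments per kilobase of transcript, scaled to library size) in either group and were tested, and all 81 passed that filter in both groups. The other 4 were Cox4i2, Cox6a2, Cox7b2 and Cox8c.

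In all, 6 libraries were compared, 3 labelled control (261, 262 and 264) and 3 labelled Rictor -/- (263, 265 and 266; titles ricEKO), all of total RNA from separated epidermis of the same strain and age. Rictor is a defining subunit of mTOR complex 2, a kinase complex that acts on AKT. The labels give no Cre driver or deleted exons, no genotype detail for the controls and do not say whether 1 library is 1 animal, so the p-values rest on the spread among libraries, part of which may be technical. Rictor itself had 5.63, 6.02 and 4.37 FPKM in the controls (261, 262, 264) against 6.83, 7.04 and 6.86 FPKM in the knockout-labelled libraries (263, 265, 266), so those labelled knockout did not have less of it (limma log2 difference 0.33 ± 0.11, adjusted p = 0.0694). A whole-gene value can keep reads from outside a deleted part and does not check the labels, and all directions below are those of the libraries labelled knockout.

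The respiratory chain passes electrons from NADH through complex I, or from succinate through complex II, to ubiquinone, then through complex III and the mobile protein cytochrome c to complex IV, where oxygen is reduced. Complexes I, III and IV pump protons, and complex V uses the proton gradient to make ATP. Apart from complex II and cytochrome c, each complex joins nuclear-encoded proteins to a few proteins encoded by mitochondrial DNA, so both genomes must supply parts together. Keratinocytes of the living layers hold mitochondria, which are removed as the cells cornify.

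The libraries summed to between 609375 and 672925 FPKM, and steps between low values put relative depth at 1 to 1.21 times that of control 261; no read counts or counting errors were derived. The epidermal keratins Krt1, Krt5, Krt10 and Krt14 summed to 28599.5 to 33554 FPKM, and endothelial markers to at most 0.716 FPKM. Control 264 stood apart from the other libraries in a way that bears on every member, described next.

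Most of the chain did not pass the test of knockout-labelled against control libraries. Of 81 tested members 8 fell and 1 rose (limma, Benjamini-Hochberg adjusted p under 0.05 over all 13500 tested genes), 9.88% lower and 1.23% higher, against a background of 15.6% lower and 7.91% higher among all tested genes. The 8 that fell were the complex I genes Ndufa6, Ndufc1, Ndufb3, Ndufv3 and Ndufb11, Sdhb of complex II, Cox7a2l of complex IV and Atp5s, and the 1 that rose was Cycs. By complex, 5 of 36 tested members of complex I fell, 1 of 4 of complex II, 0 of 8 of complex III, 1 of 15 of complex IV and 1 of 17 of complex V, and none of these rose. In complex III, with 0 called by limma, 1 member had an unadjusted p under 0.05. The median log2(FPKM + 1) difference of the 81 members was -0.17, beside -0.06 over all tested genes. Of the 81 members 71 were below 0 and 10 above, and 58.8% of all tested genes were below 0. All 3 knockout-labelled libraries lay below all 3 controls in 30 of the 81 members (29.2% of all tested genes) and above them in 1 (16.6% of all tested genes). Leaving out any other single library than control 264 gave 2 to 7 that fell, namely 4 without 261, 7 without 262, 2 without 263, 4 without 265 and 3 without 266. Cycs passed without 262 and in none of the other 4. Calls over all tested genes dropped too. Without 261, 262, 263, 265 and 266 in turn, 1289, 1544, 985, 1165 and 1001 genes were lower, against 2101 with all libraries. Those higher were 634, 664, 477, 580 and 537, against 1068. With trimmed mean scaling 6 members fell and 1 rose, while the split over all genes changed from 2101 lower and 1068 higher to 1659 and 1533. By Xist and Y-linked genes 2 of the 3 controls and 1 of the 3 knockout-labelled libraries were male. With a term for sex 3 members fell (Cox7a2l, Ndufa6 and Ndufc1) and 1 rose (Cycs), so 5 of the 9 calls were lost. Over all tested genes that term took the calls from 2101 lower and 1068 higher to 1218 and 634.

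The lean of the members below 0 was smaller without control 264. In control 264 the median member stood 0.34 above its mean over the 6 libraries on the log2 scale, against 0.01 for control 261, -0.07 for control 262 and -0.06, -0.11 and -0.07 for the knockout-labelled libraries. Control 264 was the highest of the 3 controls in 81 of 81 tested members and the highest of all 6 libraries in 78, against 35.2% of all tested genes. It exceeded the mean of controls 261 and 262 by a median factor of 1.30 in members and 1.05 over all tested genes. All 85 members summed to 11028, 10434 and 13822 FPKM in the controls (261, 262, 264) against 10664, 10196 and 10358 FPKM in the knockout-labelled libraries (263, 265, 266). Without control 264 the median difference of the members went from -0.17 to -0.05, beside -0.05 over all genes tested in that fit. Members below and above 0 were then 48 and 33, and 11 fell and 4 rose (backgrounds 16.8% and 11.2%).

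**Figure D1:**
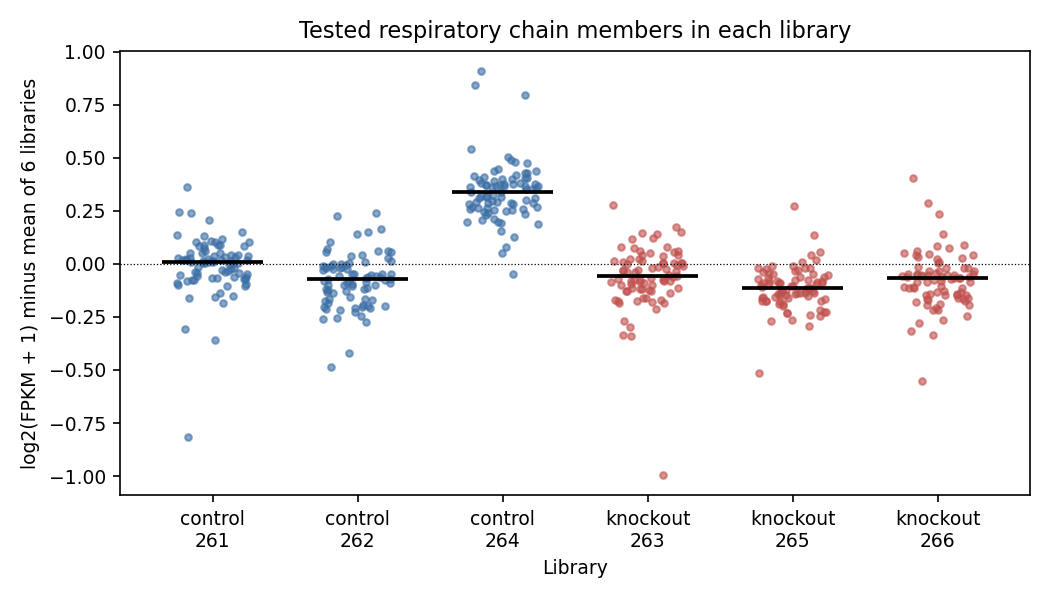
Each point is 1 of the 81 tested members: its log2(FPKM + 1) value minus its mean over the 6 libraries (vertical axis), by library (horizontal axis), with controls in blue, knockout-labelled libraries in red and the median as a black line. Control 264 has its median at 0.34, and the other 5 libraries lie between -0.11 and 0.01.

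Transcript length moved with this. The members are short, with a median principal transcript of 865 bases against 2931 bases over all tested genes. Across all tested genes, deviations from a gene's mean over the 6 libraries fell with principal transcript length in control 264 (Spearman's rho -0.50). They rose with it in 263, 265 and 266 (0.18, 0.25 and 0.28), while controls 261 and 262 were at -0.00255 and 0.0144. A gene's deviations balance out over the 6 libraries, so the trends of the libraries are not independent of each other. Genes are not independent replicates either. Among the 81 members rho was -0.40 in control 264. With each library's trend on principal transcript length removed, the median of the members was -0.02, beside -0.065 over all tested genes. This alternative was added after seeing the data. With it 7 members fell and 2 rose, Cycs and the ATP synthase gene Atp5g3 (backgrounds 16.3% and 8.47%). Why control 264 differs was not tested.

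**Figure D2:**
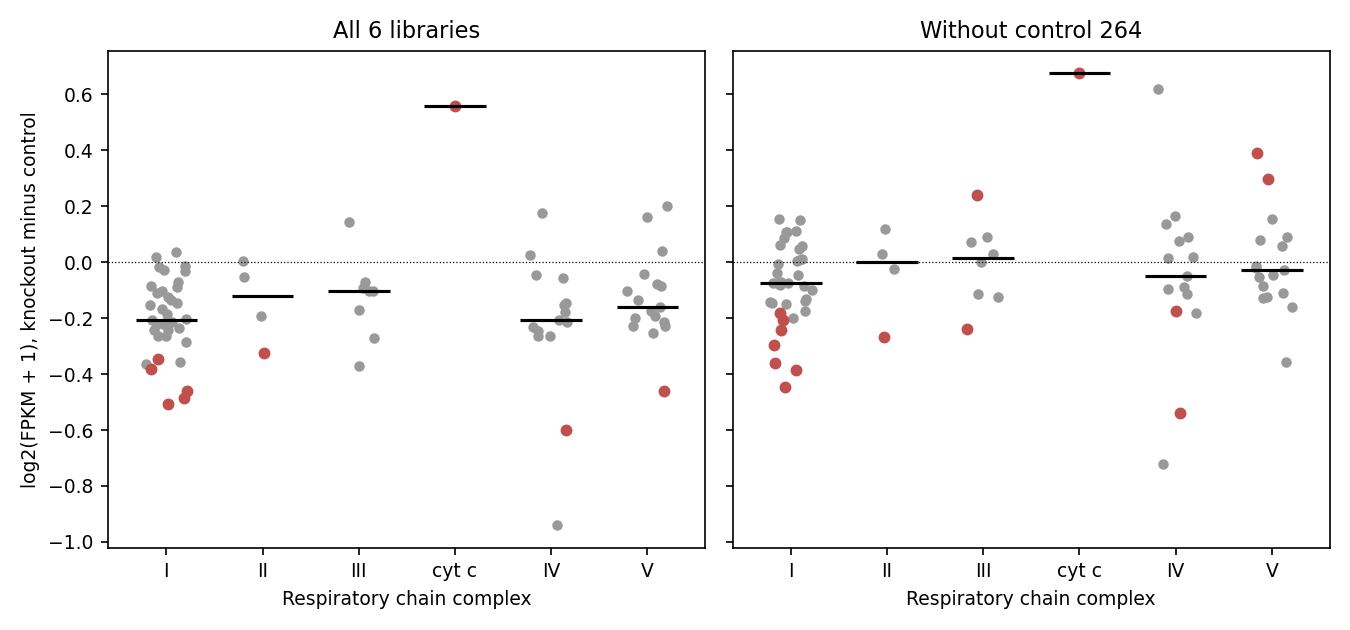
Each point is 1 tested member, with its log2(FPKM + 1) difference, knockout-labelled minus control (vertical axis), by complex (horizontal axis); red points passed limma's adjusted p of 0.05 and black lines are medians. With all 6 libraries (left) the medians of complexes I to V lie between -0.21 and -0.10, and without control 264 (right) between -0.07 and 0.01.

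Cycs, which encodes the somatic cytochrome c that carries electrons from complex III to complex IV and triggers the apoptosome when released, was the 1 member that rose. It (ENSMUSG00000063694, chromosome 6, 50562563 to 50566538) was at 18.8, 16.5 and 22.8 FPKM in the controls (261, 262, 264) against 28.8, 28.6 and 29.0 FPKM in the knockout-labelled libraries (263, 265, 266). The knockout-labelled libraries were nearly equal and all lay above the highest control, although control 264 was the highest of the controls here too. Group means were 19.4 ± 3.15 FPKM for the controls and 28.8 ± 0.166 FPKM for the knockout-labelled libraries (SD, n = 3 per group), a ratio of 1.49 and a log2 difference of 0.56 ± 0.11 (SE; limma adjusted p = 0.0153), and without control 264 the difference was 0.68 (adjusted p = 0.00475). The call was lost without control 261 and without any single knockout-labelled library, with limma adjusted p of 0.0505 to 0.0551. Cyc1, the haem-bearing cytochrome c1 of complex III that hands electrons to cytochrome c, is no member by its name and differed by 0.07 ± 0.14 (adjusted p = 0.723).

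Promoters of respiratory chain genes are known for sites of NRF1 and of ETS factors such as GABPA, and the Cycs promoter also for cyclic AMP response elements (CRE). In the 250 bases before the RefSeq start (GRCm38.p6), on both strands, the NRF1 core GCATGCGC was found in 9 of the 68 members with a promoter entry (13.2%) against 2.56% of 27025 genes, the CRE TGACGTCA in 5 (7.35%, against 1.77%) and the ETS core CCGGAAG in 12 (17.6%, against 7.83%). The 27025 genes were not limited to those tested here, so the members were not compared with expressed genes alone. None of these motifs overlapped in the promoters printed here. A match is a run of letters and not a shown binding site, and a miss says only that these letters are not in the window. The promoters of the member that rose and of the pair of members with the smallest p among those that fell are shown, from 5′ to 3′ in the gene's direction, with matches in capitals: Cycs (chr6:50566570-50566819, minus strand), Ndufa6 (chr15:82354323-82354541, minus strand, without the 31 bases of the window that GENCODE places in an exon) and Cox7a2l (chr17:83514334-83514583, minus strand, inside the longer span GENCODE gives the gene). The sequences are from RefSeq.
Cycs: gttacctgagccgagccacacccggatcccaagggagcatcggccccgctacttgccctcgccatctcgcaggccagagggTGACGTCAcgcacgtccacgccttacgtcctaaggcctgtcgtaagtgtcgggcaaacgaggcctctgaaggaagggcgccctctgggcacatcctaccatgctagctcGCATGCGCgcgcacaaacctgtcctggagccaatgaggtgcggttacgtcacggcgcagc
Ndufa6: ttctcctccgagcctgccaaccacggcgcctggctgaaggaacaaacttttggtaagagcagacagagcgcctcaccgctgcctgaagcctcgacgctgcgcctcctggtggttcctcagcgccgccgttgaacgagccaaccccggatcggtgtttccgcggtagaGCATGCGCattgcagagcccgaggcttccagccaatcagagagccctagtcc
Cox7a2l: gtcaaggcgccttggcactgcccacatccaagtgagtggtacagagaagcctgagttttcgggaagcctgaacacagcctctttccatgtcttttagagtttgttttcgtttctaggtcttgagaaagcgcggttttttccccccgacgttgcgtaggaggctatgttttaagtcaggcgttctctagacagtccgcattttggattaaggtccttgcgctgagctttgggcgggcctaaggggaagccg
Cycs held the CRE from 169 bases and the NRF1 core from 60 bases before its start, and Ndufa6 the NRF1 core from 83 bases before its start, while Cox7a2l held none of the 3 motifs. Of the called members, Cycs, Ndufa6 and Sdhb were among the 9 with the NRF1 core. Whether a motif went with the direction of change was not tested.

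Complex I takes electrons from NADH. Its nuclear-encoded core subunits, which together hold the flavin and the iron-sulfur clusters, did not pass the test in any of the genes named here. Ndufs1, the largest of them, was at 34.6, 32.1 and 37.0 FPKM in the controls (261, 262, 264) against 36.3, 34.0 and 36.0 FPKM in the knockout-labelled libraries (263, 265, 266). The groups overlapped, and the log2 difference was 0.04 ± 0.07 (95% interval -0.13 to 0.21; adjusted p = 0.727). Ndufv1, which binds NADH and flavin, was at 71.8, 66.2 and 81.5 FPKM in the controls and 71.4, 70.1 and 66.9 FPKM in the knockout-labelled libraries. The groups overlapped, with a difference of -0.07 ± 0.09 (95% interval -0.28 to 0.14). Its partner Ndufv2 showed 67.5, 66.0 and 98.5 FPKM in the controls and 66.3, 66.4 and 74.8 FPKM in the knockout-labelled libraries. Control 264 alone was far above the rest (-0.14 ± 0.16, adjusted p = 0.557). Further core subunits are Ndufs3, of the quinone-reducing arm, and the iron-sulfur proteins Ndufs7 and Ndufs8. Ndufs3 was at 61.8, 61.0 and 76.3 FPKM in the controls and 59.4, 59.6 and 64.6 FPKM in the knockout-labelled libraries. Ndufs7 was at 78.7, 66.3 and 85.6 FPKM in the controls and 71.7, 65.5 and 68.8 FPKM in the knockout-labelled libraries. Ndufs8 was at 40.6, 38.3 and 53.6 FPKM in the controls and 37.7, 35.8 and 39.1 FPKM in the knockout-labelled libraries. In these 3 genes the groups overlapped, and the differences were -0.11 ± 0.10, -0.15 ± 0.10 and -0.22 ± 0.13 (limma adjusted p of 0.455, 0.310 and 0.256).

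Of the accessory subunits of complex I, which build and stabilise the enzyme around its core, 5 fell. Ndufa6 (ENSMUSG00000022450, chromosome 15, 82350140 to 82354322), an LYR-motif protein that docks acyl carrier protein on the matrix arm, was at 134, 126 and 148 FPKM in the controls (261, 262, 264) against 94.3, 94.1 and 97.6 FPKM in the knockout-labelled libraries (263, 265, 266). The 3 knockout-labelled values sat within a few FPKM of each other, below every control, and group means were 136 ± 10.7 FPKM for the controls and 95.3 ± 1.96 FPKM for the knockout-labelled libraries (SD, n = 3 per group; -0.51 ± 0.07 log2, limma adjusted p = 0.00640). Ndufc1 (ENSMUSG00000037152, chromosome 3, 51404677 to 51408988), a small membrane-arm subunit, was at 102, 103 and 119 FPKM in the controls and 74.3, 77.4 and 82.7 FPKM in the knockout-labelled libraries (-0.46 ± 0.09, adjusted p = 0.0122). Ndufb3 (ENSMUSG00000026032, chromosome 1, 58586384 to 58595964), also of the membrane arm, was at 49.5, 47.3 and 58.1 FPKM in the controls and 39.8, 38.1 and 39.8 FPKM in the knockout-labelled libraries (-0.38 ± 0.09, adjusted p = 0.0238). In both genes every knockout-labelled library lay below every control. Ndufv3 (ENSMUSG00000024038, chromosome 17, 31520115 to 31531331), an accessory subunit beside the NADH-oxidising tip, was at 64.3, 56.7 and 78.3 FPKM in the controls and 48.6, 46.0 and 45.6 FPKM in the knockout-labelled libraries (-0.49 ± 0.12, adjusted p = 0.0285), again without overlap. Ndufb11 (ENSMUSG00000031059, chromosome X, 20615326 to 20617619), the fifth, named after its values were seen, was at 119.7, 109.5 and 142 FPKM in the controls and 95.9, 98.9 and 95.2 FPKM in the knockout-labelled libraries and lay at the threshold (-0.35 ± 0.10, adjusted p = 0.0497). All of these falls were smaller without control 264, at -0.45, -0.39, -0.30, -0.36 and -0.24, and all still passed (adjusted p from 0.00587 to 0.0285). Ndufa6 also passed with any other library left out, Ndufc1 with any but 263, and Ndufb3, Ndufv3 and Ndufb11 did not pass without 261, 263, 265 or 266 (limma adjusted p at most 0.0786, 0.0920 and 0.142) or with a term for sex (0.0622, 0.0699 and 0.116).

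The other accessory subunits of complex I ranged from 14.6 FPKM in Ndufa11 to 252 FPKM in Ndufa7. Ndufa7, the most abundant member of complex I, was at 183, 179 and 252 FPKM in the controls and 153, 162 and 155 FPKM in the knockout-labelled libraries. Its difference of -0.36 ± 0.14 did not pass (adjusted p = 0.0975) but did without control 264 (-0.21, adjusted p = 0.0278). Ndufs5, a subunit on the intermembrane-space side, differed by -0.28 ± 0.10 with all libraries (adjusted p = 0.0822) and -0.18 without control 264 (adjusted p = 0.0464); it was picked after its values were seen. In all, 34 of the 36 complex I members were below 0 with all libraries and 24 without control 264. With all libraries 58.8% of all tested genes were below 0. The complex summed to 2898, 2733 and 3601 FPKM in the controls (261, 262, 264) against 2654, 2585 and 2611 FPKM in the knockout-labelled libraries (263, 265, 266). The knockout-labelled sums lay below every control, at 0.918 to 0.943 times the mean of controls 261 and 262. The same held for the sums of complex IV, at 0.930 to 0.953 times, while those of complexes II, III and V overlapped.

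Complex II, which oxidises succinate and belongs to the citric acid cycle as well, had 1 call, in an iron-sulfur subunit. Sdha, the flavoprotein that binds succinate, was at 51.9, 49.1 and 53.4 FPKM in the controls (261, 262, 264) against 53.8, 47.8 and 53.3 FPKM in the knockout-labelled libraries (263, 265, 266). The groups overlapped and the difference was 0.00 ± 0.07 (95% interval -0.17 to 0.18). Sdhb (ENSMUSG00000009863, chromosome 4, 140961203 to 140979193), the iron-sulfur subunit that passes the electrons on, was at 87.6, 87.1 and 98.8 FPKM in the controls (261, 262, 264) against 75.7, 68.3 and 73.4 FPKM in the knockout-labelled libraries (263, 265, 266). All knockout-labelled libraries lay below all controls, and group means were 91.2 ± 6.62 FPKM for the controls and 72.5 ± 3.77 FPKM for the knockout-labelled libraries (-0.33 ± 0.08, limma adjusted p = 0.0270; without control 264 -0.27, adjusted p = 0.0245). The membrane anchors Sdhc and Sdhd differed by -0.19 ± 0.15 and -0.05 ± 0.16 and did not pass (adjusted p = 0.380 and 0.842). The call of Sdhb was lost without 261, 263, 265 or 266 (adjusted p at most 0.0903) and with a term for sex (0.0763). Whether Sdhb differed from Sdha in its response was not tested.

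In complex III, which moves electrons from ubiquinol to cytochrome c, no member passed with all 6 libraries. Uqcrc1, a core protein on the matrix side, was at 158, 150.5 and 189.7 FPKM in the controls (261, 262, 264) against 192, 172 and 183 FPKM in the knockout-labelled libraries (263, 265, 266). The groups overlapped only through control 264, and the difference was 0.14 ± 0.10 (adjusted p = 0.348), against 0.24 without that library (adjusted p = 0.0377). Uqcrh, the hinge protein that helps cytochrome c1 meet cytochrome c, was the most abundant member of the complex, at 369, 372 and 486 FPKM in the controls (261, 262, 264) against 326, 315 and 301 FPKM in the knockout-labelled libraries (263, 265, 266). Its knockout-labelled libraries lay below all controls (-0.37 ± 0.12, adjusted p = 0.0665), and without control 264 the difference was -0.24 (adjusted p = 0.0245). Uqcrfs1, the Rieske iron-sulfur protein, was at 86.9, 90.7 and 99.9 FPKM in the controls and 83.3, 79.5 and 83.3 FPKM in the knockout-labelled libraries and did not pass (-0.17 ± 0.07, adjusted p = 0.134). The other 5 members differed by -0.27 (Uqcr11) to -0.07 (Uqcr10).

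Complex IV held the member with the smallest p. Cox7a2l (ENSMUSG00000024248, chromosome 17, 83501918 to 83517330), also called SCAF1, links complex III to complex IV in respiratory supercomplexes, and C57BL/6 mice are known to carry a shortened form of its protein. It was at 259, 258 and 292 FPKM in the controls (261, 262, 264) against 173, 187 and 173 FPKM in the knockout-labelled libraries (263, 265, 266). Every knockout-labelled library lay far under every control, and group means were 269.9 ± 19.4 FPKM for the controls and 178 ± 7.88 FPKM for the knockout-labelled libraries (SD, n = 3 per group), a ratio of 0.658 and a log2 difference of -0.60 ± 0.08 (limma adjusted p = 0.00468; without control 264 -0.54, adjusted p = 0.00482). The paralog Cox7a2, the widely expressed subunit of complex IV itself, was at 166, 161 and 210.2 FPKM in the controls and 154, 153 and 146 FPKM in the knockout-labelled libraries and did not pass (-0.23 ± 0.11, adjusted p = 0.168). Whether both genes differed in response was not tested. Cox6a1, a regulatory subunit, was at 353, 342 and 435 FPKM in the controls and 343, 314 and 319 FPKM in the knockout-labelled libraries (-0.21 ± 0.11, adjusted p = 0.206). Cox5b, a zinc-binding subunit, was at 154, 147 and 226 FPKM in the controls and 158, 143 and 155 FPKM in the knockout-labelled libraries, with control 264 alone high (-0.18 ± 0.16, adjusted p = 0.456). Cox8a, a small membrane subunit, was at 358, 336 and 417 FPKM in the controls and 311, 306 and 304 FPKM in the knockout-labelled libraries. Its groups did not overlap, and it missed the threshold with all libraries (-0.26 ± 0.09, adjusted p = 0.0839) and passed without control 264 (-0.18, adjusted p = 0.0458). Ndufa4l2, a hypoxia-induced relative of Ndufa4 picked after its values were seen, was at 117, 99.8 and 171 FPKM in the controls (261, 262, 264) against 44.9, 99.4 and 61.5 FPKM in the knockout-labelled libraries (263, 265, 266). Of all tested members it had the lowest log2 difference, one of -0.94 ± 0.31 that did not pass (adjusted p = 0.0711). Its highest knockout-labelled value lay just under the lowest control. Ndufa4 differed by 0.03 ± 0.13 (adjusted p = 0.897).

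**Figure D3:**
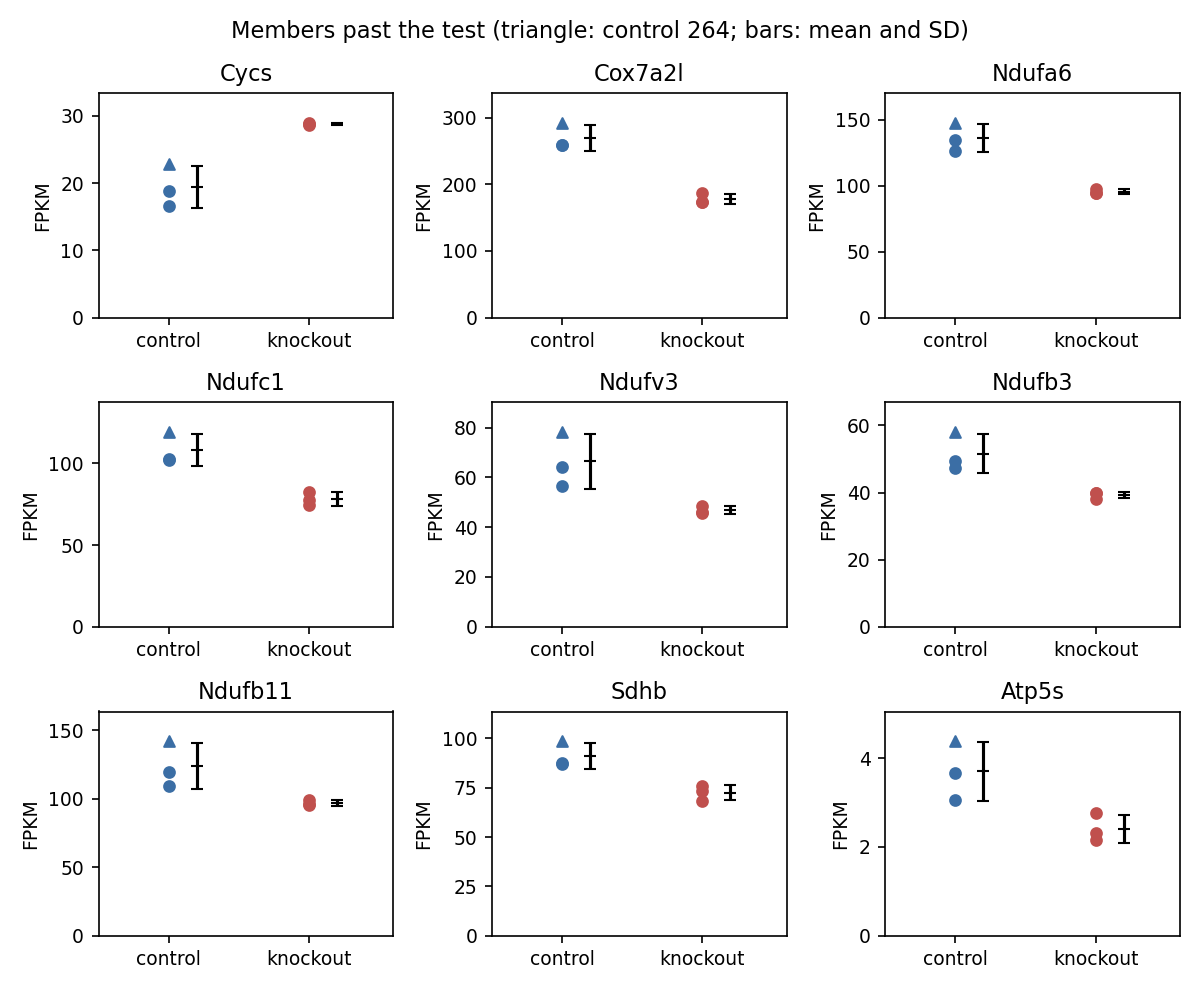
FPKM of the 9 members past limma's test (vertical axes, from 0) in each library by label, with control 264 as a triangle and bars for the mean and SD of 3 libraries. In Cycs the knockout-labelled libraries lie above all controls (28.6 to 29.0 FPKM against 16.5 to 22.8 FPKM), and in the other 8 genes below them.

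Several complex IV subunits have tissue forms. The muscle and brown fat forms Cox7a1 and Cox8b were near the filter, at 0.719, 1.07 and 2.96 FPKM in the controls and 1.03, 0.543 and 1.59 FPKM in the knockout-labelled libraries for Cox7a1 and 0.143, 0.700 and 2.50 FPKM in the controls and 1.24, 0.645 and 1.67 FPKM in the knockout-labelled libraries for Cox8b, and neither passed (-0.26 ± 0.34 and 0.18 ± 0.41; adjusted p = 0.597 and 0.776). They made up at most 1.39% of the Cox7a1 and Cox7a2 sum and 0.596% of the Cox8a and Cox8b sum, both in control 264. Cox6a2 of muscle and Cox4i2, a form of hypoxic and lung tissue, had means under 1 FPKM in both groups, and Cox7b2 and Cox8c were listed at 0 in every library. Of 7 skeletal muscle markers with a row (Acta1 was not analysed here), 6 were tested and 0 called by limma, 0 also at an unadjusted p under 0.05. They summed to 30.7, 45.8 and 62.2 FPKM in the controls (261, 262, 264) against 30.4, 40.3 and 88.9 FPKM in the knockout-labelled libraries (263, 265, 266). The 6 fat markers summed to 21.5, 21.9 and 34.4 FPKM in the controls against 16.1, 16.1 and 18.8 FPKM in the knockout-labelled libraries, mostly Cidea and Fabp4. Those were at most 17.3 and 13.7 FPKM, Ucp1 and Adipoq at most 0.831 and 1.65 FPKM, all 4 highest in control 264, and Plin1 and Plin4 under 1 FPKM in every library. The part of both marker lists in the levels of these tissue forms was not tested. Cox6b1, a subunit facing the intermembrane space, was at 276, 272 and 362 FPKM in the controls and 311, 263 and 296 FPKM in the knockout-labelled libraries and did not pass (-0.06 ± 0.13, limma adjusted p = 0.777). Its testis form Cox6b2 was at 12.5, 11.7 and 13.9 FPKM in the controls and 11.3, 9.72 and 10.6 FPKM in the knockout-labelled libraries and did not pass either (-0.24 ± 0.09, adjusted p = 0.0858), though its groups did not overlap. Cox6b2 made up, of the Cox6b1 and Cox6b2 sum, 4.33%, 4.11% and 3.70% in the controls against 3.50%, 3.56% and 3.47% in the knockout-labelled libraries. That share separated the groups (exact permutation test, two-sided p = 0.1, the smallest that 3 against 3 libraries allow; 0.200 after Benjamini-Hochberg adjustment over 6 shares).

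In ATP synthase, the catalytic subunits were the most abundant members and did not pass. Atp5b, the beta subunit that holds the catalytic sites, was at 536, 495 and 655 FPKM in the controls (261, 262, 264) against 598, 548 and 577 FPKM in the knockout-labelled libraries (263, 265, 266). The groups overlapped and the difference was 0.04 ± 0.12 (95% interval -0.23 to 0.31). Atp5a1, the alpha subunit, was at 402, 387 and 445 FPKM in the controls and 400.1, 372 and 394 FPKM in the knockout-labelled libraries (-0.08 ± 0.08, 95% interval -0.27 to 0.11). The 1 call, Atp5s (ENSMUSG00000054894, chromosome 12, 69724950 to 69744660), a coupling-factor relative that is not among the stable subunits of the enzyme, was low, at 3.06, 3.67 and 4.39 FPKM in the controls and 2.15, 2.76 and 2.32 FPKM in the knockout-labelled libraries (-0.46 ± 0.13, limma adjusted p = 0.0440), and was lost without control 264 (-0.36, adjusted p = 0.0711) and without any other single library except 261 (adjusted p at most 0.135). Atpif1, the inhibitor of the reverse reaction and no member by its name, differed by -0.36 ± 0.12 (adjusted p = 0.0792) and passed without control 264 (-0.22, adjusted p = 0.0339). The other 11 members outside the c subunit family differed by -0.25 (Atp5e) to -0.04 (Atp5j), and none passed.

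The c subunit, which forms the rotating ring, is encoded by 3 genes whose mature proteins are the same and whose import sequences differ. Atp5g1 was at 134, 112 and 182 FPKM in the controls (261, 262, 264) against 165, 151 and 165 FPKM in the knockout-labelled libraries (263, 265, 266). Atp5g2 was at 193, 192 and 222 FPKM in the controls and 169, 169 and 178 FPKM in the knockout-labelled libraries, and Atp5g3 at 260.1, 239 and 329.6 FPKM in the controls and 327, 292 and 302 FPKM in the knockout-labelled libraries. None passed with all libraries (0.20 ± 0.17, -0.23 ± 0.08 and 0.16 ± 0.13; limma adjusted p = 0.422, 0.0815 and 0.382). With the principal transcript length adjustment Atp5g3 passed (0.34, adjusted p = 0.0263) and Atp5g2 was at -0.06 (adjusted p = 0.455). With array weights all 3 passed, at 0.29, -0.16 and 0.24 (adjusted p = 0.0270, 0.0226 and 0.0206). That fit gave control 264 the lowest weight and called 3937 genes lower and 2335 higher of 13500, against 2101 and 1068 in the main fit. Without control 264 Atp5g1 (0.39, adjusted p = 0.0286) and Atp5g3 (0.30, adjusted p = 0.0302) rose while Atp5g2 was at -0.16 (adjusted p = 0.0534). A share of the summed FPKM of the 3 genes does not depend on a factor common to a library. It can still move with a library's trend on transcript length. The principal transcript has 4715 bases in Atp5g1, against 731 in Atp5g2 and 723 in Atp5g3. Atp5g2 held 32.9%, 35.3% and 30.3% in the controls against 25.6%, 27.6% and 27.6% in the knockout-labelled libraries, and Atp5g3 held 44.3%, 44.1% and 44.9% in the controls against 49.4%, 47.7% and 46.8% in the knockout-labelled libraries. Both shares separated the groups, Atp5g2 different by -5.91 and Atp5g3 by 3.53 percentage points (exact permutation tests, two-sided p = 0.1 each, the smallest possible; 0.2 adjusted over 6 shares). The share of Atp5g1 went from 22.7% ± 2.13 to 25.1% ± 0.431 (SD, n = 3 per group) with overlapping groups (exact permutation p = 0.200). The 3 genes share coding sequence, and how the authors' counting split reads between them is not stated in the labels or files.

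**Figure D4:**
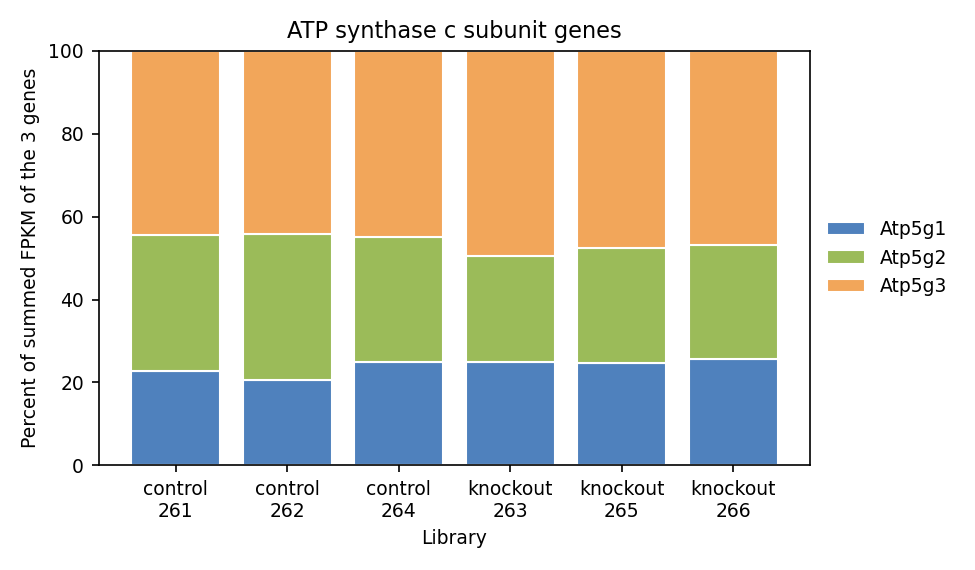
Bars give the percent of the summed FPKM of Atp5g1, Atp5g2 and Atp5g3 that each gene held (vertical axis, 0 to 100) in each library (horizontal axis). Atp5g2 held 30.3% to 35.3% in the controls and 25.6% to 27.6% in the knockout-labelled libraries.

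The subunits encoded by mitochondrial DNA went the other way in control 264. Of 13 such genes 10 were tested and 0 called by limma, with 0 at an unadjusted p under 0.05. Control 264 was the lowest of the 6 libraries in 9 of the 10, the exception being mt-Nd3, and the genes summed to 23866, 25313 and 12055 FPKM in the controls (261, 262, 264) against 23995, 24392 and 21564 FPKM in the knockout-labelled libraries (263, 265, 266). In mt-Nd1, a core membrane subunit of complex I, the values were 2400.2, 2464 and 1199.9 FPKM in the controls and 2692, 3013 and 2559.9 FPKM in the knockout-labelled libraries (0.52 ± 0.28, adjusted p = 0.218), and mt-Nd2 differed by 0.47 ± 0.25 (adjusted p = 0.211). Relative to the mean of controls 261 and 262, control 264 thus held 0.490 times their summed FPKM of mitochondrially encoded and 1.29 times that of nuclear-encoded subunits, while the knockout-labelled libraries held 0.877 to 0.992 and 0.950 to 0.994 times. The gene with the highest FPKM in the sum was mt-Atp8, at 10959, 11319.9 and 5373 FPKM in the controls and 10878, 9829 and 9016 FPKM in the knockout-labelled libraries, whereas mt-Atp6, whose gene overlaps it, and mt-Co2 and mt-Co3 were at most 1.26 FPKM although every cell uses them, so the deposited values of these genes may not follow their RNA.

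**Figure D5:**
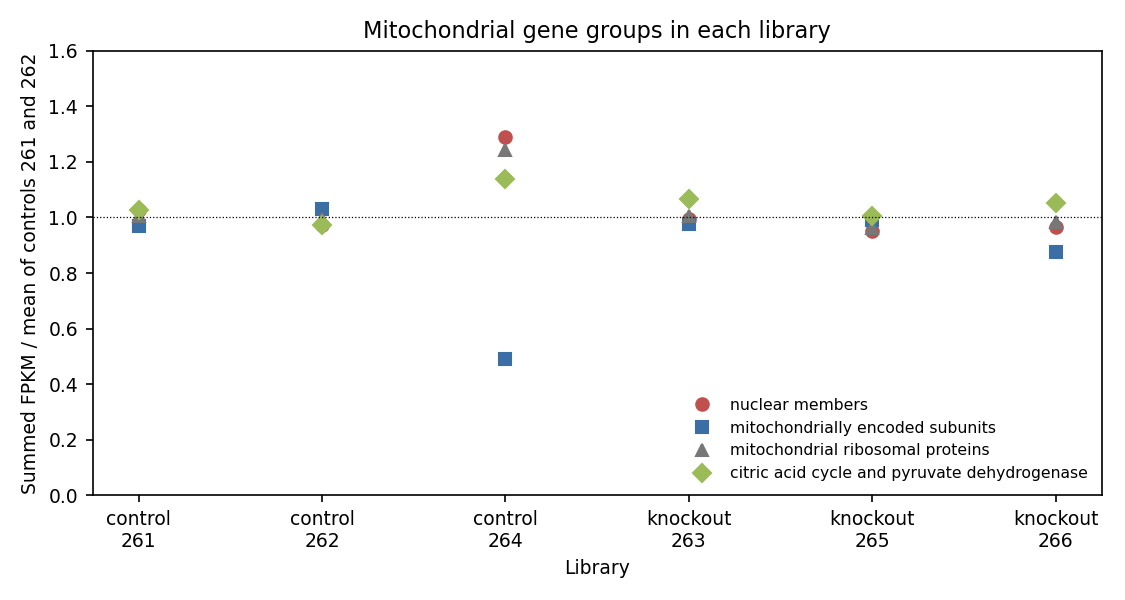
Summed FPKM of the nuclear members (circles), mitochondrially encoded subunits (squares), mitochondrial ribosomal proteins (triangles) and citric acid cycle genes (diamonds) in each library (horizontal axis), divided by the group's mean in controls 261 and 262 (vertical axis, from 0). Control 264 lies at 1.29 for the nuclear members and 0.490 for the mitochondrially encoded subunits, and the knockout-labelled libraries lie between 0.877 and 1.06 over the 4 groups.

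Assembly factors, which insert cofactors and join subunits, were counted beside the subunits. Of 22 tested complex IV factors 7 fell and 1 rose, and of 18 complex I factors 3 fell and 1 rose. For complex III 1 of 7 fell, and for ATP synthase 1 of 5. The shares that fell were 16.7% for complex I, 14.3% for complex III and 20% for ATP synthase. Over all tested genes 15.6% fell and 7.91% rose. For the 4 of complex II limma called 0, with 2 at an unadjusted p under 0.05. In complex IV the 7 were Cmc1, Surf1, Pet100, Coa4, Cox17, Cox14 and Cox15, a share of 31.8% beside the background of 15.6%, and the median of the 22 was -0.23. Cmc1, which holds the early COX1 intermediate, was at 19.505, 21.9 and 22.1 FPKM in the controls (261, 262, 264) against 12.9, 11.0 and 12.3 FPKM in the knockout-labelled libraries (263, 265, 266) (-0.76 ± 0.08, adjusted p = 0.00303). Surf1, a factor for haem insertion into COX1 whose loss causes Leigh syndrome in humans, was at 26.5, 28.2 and 29.1 FPKM in the controls and 18.0, 19.7 and 19.490 FPKM in the knockout-labelled libraries (-0.53 ± 0.07, adjusted p = 0.00428). In both genes the controls were close together, control 264 included, and all knockout-labelled libraries were lower. The factor that rose, Lrpprc, stabilises mitochondrial mRNAs (0.26 ± 0.06, adjusted p = 0.0269). Without control 264, 8 of the complex IV factors fell and 3 rose (backgrounds 16.8% and 11.2%). For complex I, Ndufaf4 rose (0.71 ± 0.08, adjusted p = 0.00298), at 6.63, 5.82 and 6.80 FPKM in the controls (261, 262, 264) against 10.8, 10.8 and 11.7 FPKM in the knockout-labelled libraries (263, 265, 266), and Lyrm2 fell (-0.52 ± 0.09, adjusted p = 0.0108). Uqcc3 of complex III (-0.55 ± 0.08, adjusted p = 0.00627) and Tmem242 of ATP synthase (-0.42 ± 0.08, adjusted p = 0.0158) also fell. Those with the smallest p among genes that did not pass were Sdhaf1 (-0.27 ± 0.09, adjusted p = 0.0624) and Sdhaf4 (-0.39 ± 0.15, adjusted p = 0.114) for complex II, Uqcc1 (-0.30 ± 0.09, adjusted p = 0.0512) for complex III and Fmc1 (-0.29 ± 0.14, adjusted p = 0.177) for ATP synthase. Higd2a, which acts in complex IV and supercomplex assembly, was the 1 of 11 tested supercomplex and cristae genes that fell (-0.41 ± 0.08, adjusted p = 0.0158), and 0 of them rose.

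Among 15 tested regulators of mitochondrial biogenesis 2 rose and 1 fell (backgrounds 7.91% and 15.6%). Pprc1, a coactivator of the PGC-1 family that is induced by growth stimuli, was at 13.5, 13.9 and 12.5 FPKM in the controls (261, 262, 264) against 19.1, 20.0 and 17.9 FPKM in the knockout-labelled libraries (263, 265, 266) (0.49 ± 0.07, limma adjusted p = 0.00623). Nfe2l2, which encodes the oxidative stress factor NRF2, rose as well (0.49 ± 0.11, adjusted p = 0.0208), and Tfb1m, a methyltransferase of mitochondrial ribosomal RNA, fell (-0.48 ± 0.09, adjusted p = 0.0144). Nrf1, whose product binds the motif searched above, was at 17.8, 17.0 and 16.8 FPKM in the controls and 20.4, 19.4 and 19.546 FPKM in the knockout-labelled libraries and missed the threshold (0.19 ± 0.06, adjusted p = 0.0532), though its groups did not overlap. Ppargc1a, the PGC-1 alpha gene, was at most 0.762 FPKM and was not tested. Of 17 citric acid cycle and pyruvate dehydrogenase genes limma called 0, with 2 at an unadjusted p under 0.05, the isocitrate dehydrogenase subunits Idh3a (0.33 ± 0.10, adjusted p = 0.0579) and Idh3b (-0.26 ± 0.08, adjusted p = 0.0616). Of 78 mitochondrial ribosomal protein genes 5 fell, a share of 6.41% against the background of 15.6%, and 0 rose (background 7.91%). Those with the smallest p were Mrpl24 (-0.43 ± 0.08, adjusted p = 0.0149) and Mrpl34 (-0.31 ± 0.07, adjusted p = 0.0254). Control 264 was the highest library in 68 of the 78.

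Markers of some cell types other than basal and spinous keratinocytes differed between the labelled groups. Over all tested genes 15.6% fell and 7.91% rose. Of the tested sebaceous gland markers 4 of 4 fell, with sums of 92.9 to 146 FPKM in the controls and 48.1 to 60.8 FPKM in the knockout-labelled libraries, as did 3 of 4 myeloid markers (33.3 to 42.8 FPKM in the controls and 22.9 to 25.1 FPKM in the knockout-labelled libraries) and 3 of 4 melanocyte markers (336 to 416 FPKM in the controls and 252 to 283 FPKM in the knockout-labelled libraries). Of the 4 tested blood markers limma called 0, with 3 at an unadjusted p under 0.05. Of the keratins Krt5 (0.57 ± 0.10, limma adjusted p = 0.00972) and Krt14 (1.20 ± 0.14, adjusted p = 0.00373) of the basal layer rose, and Krt1 and Krt10 did not pass. Of the 2 tested fat markers Cidea, which sebaceous glands also express, fell. Of 4 tested dermal fibroblast markers 2 rose (114 to 142 FPKM in the controls and 124 to 159 FPKM in the knockout-labelled libraries). In whole epidermis fewer cells of a type and less RNA per cell cannot be told apart, and the part of these cell types in the levels of the respiratory chain members was not tested.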

How the data were processed

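RNA was extracted from separated epidermis with a QIAGEN RNeasy Mini kit and made into Illumina libraries, per the labels' protocols. The authors deposited 1 table of FPKM per gene and library, made with CASAVA and Cufflinks on GRCm38, per the submitters' processing notes; the labels state no versions, aligner, annotation or strandedness. FPKM divides by length and by the library total, so abundant genes and length trends of single libraries move other values. Groups came from the sample titles. Of 49452 rows, 49109 matched GENCODE M21 (GRCm38), which gave symbols, gene types, positions and lengths, and the highest row was kept where rows shared a symbol. Values were tested as log2(FPKM + 1), which understates changes of low genes, for the 13500 genes whose control or knockout-labelled mean reached 1 FPKM, with limma's linear model and an intensity trend (3 against 3 libraries, no covariates, two-sided, Benjamini-Hochberg). Changes in the text are log2 differences ± SE, knockout-labelled minus control. On simulated data for 13500 genes, the test recovered 85% of 100 genes changed 2-fold and 99% of 100 changed 4-fold, and called 10 unchanged genes. Only genes above 5 FPKM were changed, and noise was drawn independently, with no shift or length trend shared by a library's genes. Changes under 2-fold, such as those of the tested members, were not simulated, so their recovery is unknown. Some results for single members are not reported here. Shares of paralogs were compared by exact permutation. Named members were the called ones with the smallest p in each complex (up to 4 per direction), the most abundant member, core catalytic subunits and paralog families, and in other lists the 2 genes with the smallest p and any called regulator; members and lists were chosen with earlier results of these data known. Alternatives were pseudocounts of 0.1 and 5, other filters, scalings, length and GC adjustments, array weights, no trend, a term for the animals' sex (read from Xist and Y-linked genes), an adjusted p of 0.10 and each library left out. Promoter sequences came from RefSeq (GRCm38.p6). Tools were R 4.3.3, limma 3.58.1, Python 3.11.15, pandas 2.3.3, scipy 1.17.1 and matplotlib 3.10.9.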

Additional observations from a re-analysis of the deposited data

How the results depend on the processing

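No paired analysis was possible because every library has a number of its own. With all libraries 8 members fell and 1 rose. The count of members that fell was 5 without a filter, 3 with a sex term and 16 at an adjusted p of 0.10. It was 23 with array weights, which gave control 264 the lowest weight. With array weights 5 rose, and 2 rose with the principal transcript length adjustment. Calls over all tested genes moved as well, from 2101 lower and 1068 higher of 13500 in the main fit. They were 3937 and 2335 of 13500 with array weights and 1218 and 634 of 13500 with a sex term. Without a filter they were 1507 and 724 of 26987. No count over all genes was made at an adjusted p of 0.10. Leaving out 1 library gave 2 to 11 that fell and 0 to 4 that rose, with the fewest falls without 263 and the highest counts without control 264. Over all tested genes the lower calls were likewise fewest without 263 (985) and most without control 264 (2270). The median difference of the members stayed below 0, from -0.26 without control 262 to -0.02 with the principal transcript length adjustment. Over all tested genes it was -0.073 and -0.065 in these fits. With the length adjustment the members' median thus lay above that of all genes. Cox7a2l and Ndufa6 kept their calls under all 19 alternatives (largest adjusted p 0.0261 and 0.0323), Ndufc1 under 18, Cycs under 15, Ndufb3 and Sdhb under 14, Ndufv3 under 13, Ndufb11 under 6, and Atp5s under 7 of 18; no called member changed sign. For members or shares that did not pass, the sign changed under some settings. The share of Cox7a1 in percentage points ranged from -0.326 to 0.152 leaving out 1 library. The share of Cox8b in percentage points ranged from -0.0181 to 0.260 leaving out 1 library. Atp5b became -0.0179 (quantile normalization), and ranged from -0.0463 to 0.155 leaving out 1 library. Cox5b ranged from -0.292 to 0.0161 leaving out 1 library. Cox6b1 became 0.00620 (trimmed mean scaling), 0.0611 (exonic length), 0.0707 (exonic length and GC), 0.0737 (array weights) and 0.140 (principal transcript length), and ranged from -0.128 to 0.0773 leaving out 1 library. Cox7a1 became 0.245 (array weights), and ranged from -0.510 to 0.0912 leaving out 1 library. Cox8b ranged from -0.189 to 0.618 leaving out 1 library. Ndufs1 became -0.0351 (exonic length) and -0.0465 (exonic length and GC), and ranged from -0.0134 to 0.0877 leaving out 1 library. Ndufs3 became 0.0199 (principal transcript length). Ndufv1 became 0.00290 (principal transcript length), and ranged from -0.138 to 0.0104 leaving out 1 library. Ndufv2 became 0.0386 (array weights), and ranged from -0.236 to 0.0483 leaving out 1 library. Sdha became -0.00490 (exonic length and GC), and ranged from -0.0287 to 0.0583 leaving out 1 library. Causes were not tested. FPKM without counts gives no counting error, so low members such as Cox7a1, Cox8b and Atp5s carry an unknown one.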
